A study of Homo sapiens with 16 samples.

Results

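K1 cells that received nutlin together with GSK2830371 were compared with K1 cells that received nutlin alone, to describe what inhibition of PPM1D adds once p53 is already active in this line. The members are the 4 libraries whose labels name the line K1 and either of these treatments, out of 16 libraries in the series. Treatment was for 24 h, with 10 µM nutlin in both groups and 25 µM GSK2830371 in addition in the combination group, and each group holds 2 libraries. K1 libraries treated with GSK2830371 alone or with the vehicle, 0.2% DMSO, were used for the effect of the drug without nutlin, and the TPC1 libraries of the same treatments for the comparison between lines. K1 and TPC1 are papillary thyroid carcinoma lines, and K1 is a derivative of the line GLAG-66. Stranded polyadenylated RNA was sequenced and the reads counted per gene. The labels do not say that replicates came from separate cultures. The paper's reporting summary describes its replicates in general as biological and independently prepared. The p-values measure the spread between these libraries, which may be technical if that statement does not cover them.

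The transcription factor p53 halts the cell cycle and can start apoptosis. It is held in check by MDM2, a ubiquitin ligase that binds it and sends it to degradation, and by PPM1D, a phosphatase that removes activating phosphates from p53 and from the kinases of the DNA damage response, and both repressors are themselves p53 targets. Nutlin blocks the MDM2 pocket that binds p53, and GSK2830371 is an allosteric inhibitor of PPM1D. The integrated stress response, a separate pathway, slows translation through phosphorylation of eIF2alpha by kinases that sense amino acid shortage, heme shortage, misfolded protein or double-stranded RNA, and leads to translation of the transcription factor ATF4, which acts on genes of amino acid supply.

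The nutlin libraries held 28888686 and 32829141 counts and the combination libraries 31859207 and 32232970. All 8 K1 libraries were fitted together over the 15900 genes above 0.1 CPM (counts relative to the library total) in at least 2 of them. The CPM printed here for single genes and lists also carry edgeR's TMM scaling factors. A gene was called raised or lowered where its p in the quasi-likelihood test of edgeR, adjusted by Benjamini-Hochberg, was below 0.05 and its fold change exceeded 1.5. Fold changes are given as log2, with the standard error after ±. The combination raised 184 genes (1.16% of those tested) and lowered 242 (1.52%) relative to nutlin. At an unadjusted p below 0.05 in edgeR, 4185 of the 15900 genes differed (26.3%). All called genes had groups that did not overlap, and their median log2 fold changes were 0.79 and −0.84, against 0.00 over all genes tested. With 2 libraries in each group, genes without a change can also have groups that do not overlap. The share of genes without overlap among all those tested was not counted, so a lack of overlap here and below only describes the values. With the threshold on the adjusted p alone the numbers were 936 raised and 1039 lowered, so most differences that passed the test were smaller than 1.5-fold. Leaving out a library leaves its partner alone, and the partner is then taken to vary as libraries of the other groups do. The raised genes then numbered 87 without nutlin replicate 2, 113 without combination replicate 1 and 105 without combination replicate 2, and the lowered genes 140 without nutlin replicate 2. Raised genes made up 43.2% of the calls. That share was 53.8% when libraries were scaled by their totals, 33.0% with DESeq2's Wald test and 31.8% when the change was tested against 1.5-fold. The moderated fold changes of DESeq2, here and below, come from a fit of the 4 compared libraries alone and gave 32.5%. Its Wald test used all 8 K1 libraries.

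**Figure D1:**
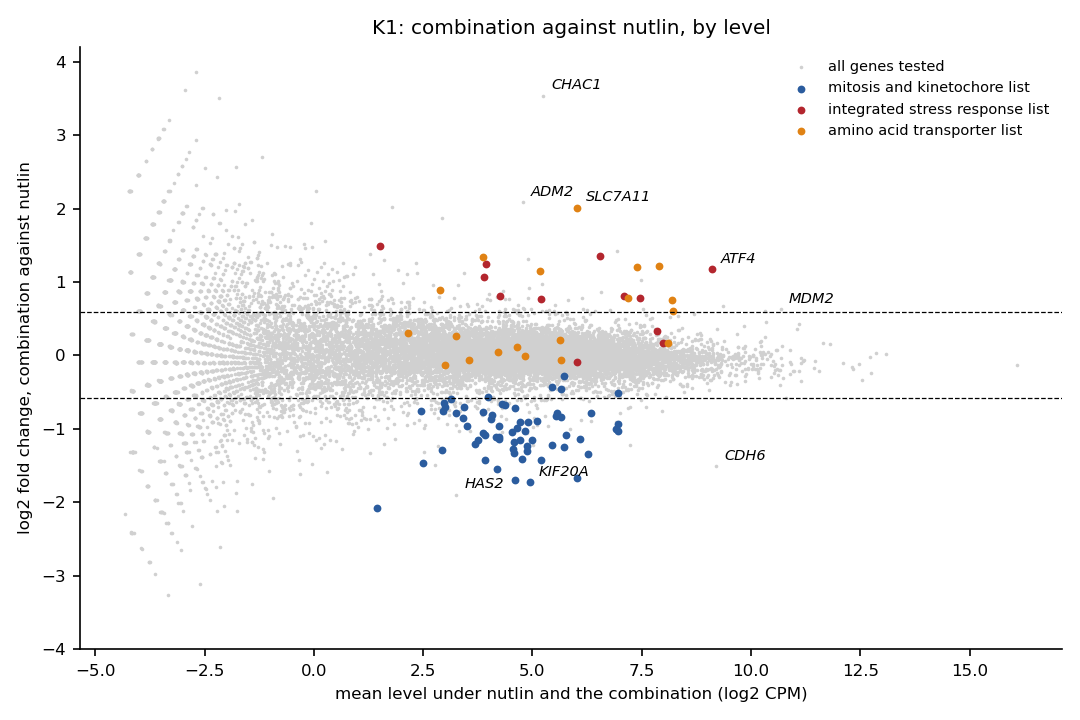
Log2 fold change of combination against nutlin in K1 (vertical axis) by the mean level over the nutlin and combination libraries (log2 CPM, horizontal axis) for genes with a mean above 0.05 CPM. Dashed lines mark a 1.5-fold change. Genes of the mitosis list (blue) all lie below 0, and most genes of the stress response (red) and amino acid transporter (orange) lists lie above it.

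*MDM2* (chromosome 12, 69201957 to 69239324 in GRCh37) stood at 155 and 157 CPM under DMSO, 190 and 210 under GSK2830371, 1262 and 1313 with nutlin and 1889 and 2102 with the combination. The 4 treatments did not overlap, and the combination exceeded nutlin by 0.63 ± 0.06 (adjusted p = 6.7e-05, edgeR quasi-likelihood, Benjamini-Hochberg). *CDKN1A* (chromosome 6, 36644237 to 36655114), which encodes the CDK inhibitor p21, stood at 979 and 1066 CPM under nutlin and at 1529 and 1570 under the combination. The groups did not overlap and the difference was 0.60 ± 0.06 (adjusted p = 4.8e-05 same edgeR quasi-likelihood test, Benjamini-Hochberg). Both lie near the 1.5-fold threshold. *MDM2* fell below it without combination replicate 2 (0.55), and *CDKN1A* without combination replicate 2 (0.58) or nutlin replicate 1 (0.54) and with the moderated fold changes of DESeq2 (0.57). Neither passed a test against 1.5-fold.

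*PPM1D* itself (chromosome 17, 58677554 to 58743641) took the other direction. It stood at 50.8 and 58.2 CPM under nutlin and at 40.4 and 46.4 under the combination, against 21.0 and 22.6 under DMSO. The groups did not overlap, but the change of −0.33 ± 0.08 was smaller than 1.5-fold (adjusted p = 0.019, edgeR quasi-likelihood, Benjamini-Hochberg). *BBC3*, which encodes the proapoptotic protein PUMA, stood at 40.9 and 47.4 CPM under nutlin and at 54.0 and 57.9 under the combination, and the change of 0.34 ± 0.08 was also under 1.5-fold.

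Of 62 p53 target genes tested, 4 were raised and 0 lowered, where 1.16% of all genes were raised, and the median was 0.20 against 0.00 over all genes tested. The list does not hold *GDF15*, *SESN2*, *PMAIP1* or *ATF3*, which are described with other lists. Besides *MDM2* and *CDKN1A* the raised members were *TP73*, a p53 relative, at 11.1 and 12 CPM under nutlin and 18.6 and 20.6 under the combination, and *ACER2*, an alkaline ceramidase, at 11.5 and 11.6 against 21.0 and 20.1. Neither gene's groups overlapped. Values were positive for 57 members, 22 of which (5.89% of all genes) had an adjusted p below 0.05 without regard to fold in edgeR quasi-likelihood, Benjamini-Hochberg, and *PPM1D* was the 1 member with a negative value at that level. No member was lowered in DESeq2 either, and 2 had negative values at an unadjusted p below 0.05 in edgeR. Without combination replicate 2 the raised members numbered 2. Nutlin alone had raised 52 of the 62, where 3.84% of all genes were raised, and this comparison shares the nutlin libraries with the one described here. Among the 14 BCL2 family genes tested, the BH3-only genes *PMAIP1*, encoding NOXA, at 23.1 and 20.9 CPM under nutlin and 36.2 and 39.4 under the combination, and *BCL2L11*, encoding BIM, at 1.25 and 1.12 against 2.42 and 2.66, were raised. The groups of either gene did not overlap, and *BCL2L11* lost its call without nutlin replicate 2. Of 14 death receptor and extrinsic apoptosis genes 0 were called in edgeR or DESeq2, with 6 at an unadjusted p below 0.05 in edgeR (26.3% of all genes), 5 of them higher.

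**Figure D2:**
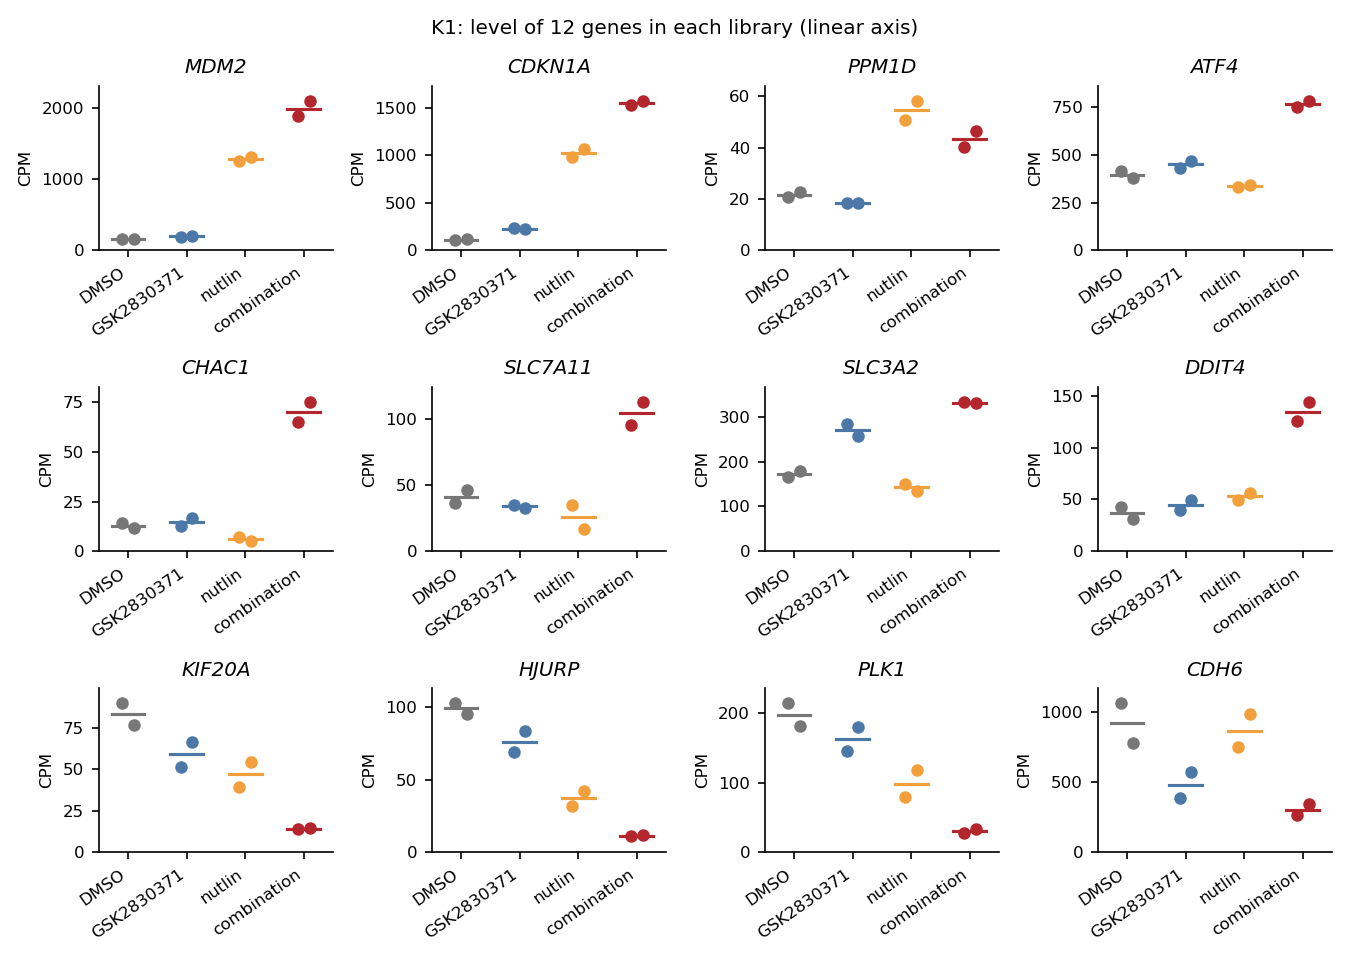
Level of 12 genes (CPM, linear axis from 0) in each K1 library under DMSO, GSK2830371, nutlin and the combination; points are libraries and bars the mean of 2. *MDM2* and *CDKN1A* rise with nutlin and again with the combination, *CHAC1*, *SLC7A11* and *DDIT4* are highest under the combination, and *KIF20A*, *HJURP* and *PLK1* are lowest there.

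Among genes of the integrated stress response, *ATF4* (chromosome 22, 39915700 to 39918688) stood at 415 and 379 CPM under DMSO, 433 and 466 under GSK2830371, 333 and 344 with nutlin and 749 and 782 with the combination. Its combination libraries lay above all 6 others, and the difference from nutlin was 1.18 ± 0.06 (adjusted p = 3.0e-07, edgeR quasi-likelihood, Benjamini-Hochberg). That call held under each of the 19 alternatives. *DDIT3*, which encodes the ATF4 partner CHOP, stood at 13.8 and 14.1 CPM under nutlin and 25.0 and 24.2 under the combination, without overlap, a change of 0.81 ± 0.09. *ATF3*, a related factor, was scarce, at 1.94 and 1.09 CPM under nutlin and 4.27 and 4.17 under the combination. Its groups did not overlap, but the change of 1.495 ± 0.29 lost its call without nutlin replicate 2.

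Of the 12 regulators of this response tested, 9 were raised and 0 lowered, with a median of 0.81, where 1.16% of all genes were raised. None of the 12 had a negative value at an unadjusted p below 0.05 in edgeR, and DESeq2 also raised 9 and lowered 0. *TRIB3*, a pseudokinase that feeds back on ATF4, stood at 106 and 93.6 CPM under nutlin and 176 and 175 under the combination. *CEBPG*, a bZIP partner of ATF4, stood at 27.9 and 26.6 against 46.9 and 45.6. *SESN2* and *DDIT4*, which restrain mTORC1, stood at 128 and 130 CPM against 219 and 224, and at 49.5 and 56.4 CPM against 126 and 144. None of these 4 overlapped between the groups. *SESN2* had already risen with nutlin (1.52), whereas *TRIB3* (−0.16) had not, and *CEBPG* lay lower with nutlin than with DMSO (−0.44). The remaining 11 genes of the mTORC1 brake list of 13 were not called.

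Among the 13 genes for eIF2alpha kinases and eIF2 subunits, 0 were called in edgeR or DESeq2, and 6 had an unadjusted p below 0.05 in edgeR (26.3% of all genes), 4 of them higher. *EIF2AK1*, which encodes the heme-regulated kinase HRI, stood at 100 and 105 CPM under nutlin and at 115 and 121 under the combination. Its groups did not overlap, and the change of 0.20 ± 0.06 was under 1.5-fold (adjusted p = 0.030, edgeR quasi-likelihood, Benjamini-Hochberg). *HMOX1*, which encodes heme oxygenase and was the 1 raised member of 18 heme and iron genes (1.16% of all genes), stood at 577 and 435 CPM under nutlin and 889 and 722 under the combination. The groups did not overlap but replicates lay far apart, and the change of 0.67 ± 0.17 lost its call in DESeq2 and without nutlin replicate 2 or combination replicate 1. *HMOX1* stood at 411 and 605 CPM under DMSO and at 864 and 659 under GSK2830371 alone, which overlapped the combination. The effect of the drug with nutlin minus that without it was 0.09 and was not called. The endoplasmic reticulum chaperone list (24 tested) and the heat shock chaperone list (14 tested) held 0 called genes in edgeR and in DESeq2. At an unadjusted p below 0.05 in edgeR, 11 and 5 of their members differed, in both directions, where 26.3% of all genes did.

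The largest increase among called genes whose higher group averaged 5 CPM or more was that of *CHAC1* (chromosome 15, 41245160 to 41248710), a glutathione-degrading enzyme. It stood at 14.1 and 11.8 CPM under DMSO, 13 and 16.9 under GSK2830371, 7.04 and 5.06 with nutlin and 64.7 and 74.9 with the combination. Nutlin libraries were the lowest and combination libraries the highest, and the difference between them was 3.54 ± 0.15 (adjusted p = 5.2e-08, edgeR quasi-likelihood, Benjamini-Hochberg). *SLC7A11* (chromosome 4, 139085251 to 139163503), the cystine transporter that feeds glutathione synthesis, stood at 36.5 and 46.1 CPM under DMSO, 34.8 and 33.0 under GSK2830371, 35.1 and 16.8 with nutlin and 95.3 and 113 with the combination. Its combination libraries lay above all 6 others, and the nutlin libraries differed more than 2-fold from each other. Among 19 alternatives the increase of 2.01 ± 0.22 lost its call only under the moderated fold changes of DESeq2 on the 4 compared libraries (0.44). *SLC3A2* (chromosome 11, 62623476 to 62656352), the heavy chain that SLC7A11 and SLC7A5 pair with, stood at 151 and 135 CPM under nutlin and 333 and 330 under the combination, a change of 1.21 ± 0.07 without overlap. *CTH*, which makes cysteine by transsulfuration, stood at 3.99 and 2.64 against 11.5 and 12.5 CPM, a change of 1.87 ± 0.16, again without overlap.

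Promoters were read from RefSeq (GRCh38.p14) as the 250 bases before and 50 after the gene start, for 132 of the 184 raised genes, 175 of the 242 lowered and 11161 of all genes tested. The letters TGATGNAA, the core of the composite element that C/EBP and ATF factors bind, were searched on both strands. They occurred in 10 raised promoters (7.58%), 4 lowered (2.29%), 209 of all genes tested (1.87%) and 3.67% of the 27305 promoters in the table. The promoters of *CHAC1* (chr15:40953221-40953520, plus strand) and *SLC3A2* (chr11:62881449-62881748, plus strand) are printed because these members rose and hold the letters, in capitals, at −209 and 37 from the gene start. A match describes the letters and is not evidence of binding.
CHAC1: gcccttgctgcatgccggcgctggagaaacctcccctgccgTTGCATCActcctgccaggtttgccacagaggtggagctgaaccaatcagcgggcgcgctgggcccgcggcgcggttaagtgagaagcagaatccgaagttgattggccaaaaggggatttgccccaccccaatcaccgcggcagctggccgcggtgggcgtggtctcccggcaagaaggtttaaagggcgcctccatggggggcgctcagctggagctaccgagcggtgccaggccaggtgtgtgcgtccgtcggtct
SLC3A2: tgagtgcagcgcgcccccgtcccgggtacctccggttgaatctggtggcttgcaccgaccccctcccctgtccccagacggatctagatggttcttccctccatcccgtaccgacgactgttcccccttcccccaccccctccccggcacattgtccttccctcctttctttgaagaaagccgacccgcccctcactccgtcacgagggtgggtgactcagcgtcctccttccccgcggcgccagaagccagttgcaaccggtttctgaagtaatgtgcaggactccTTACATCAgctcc

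Of 19 amino acid transporters tested, 9 were raised and 0 lowered (1.16% and 1.52% of all genes), with a median of 0.30. None was lower at an unadjusted p below 0.05 in edgeR, and DESeq2 raised 7 and lowered 0. *SLC1A5*, a glutamine transporter, stood at 249 and 187 CPM under nutlin and 377 and 362 under the combination, and *SLC1A4*, a transporter of neutral amino acids, at 25.9 and 19.3 against 51.6 and 47.8. Neither gene's groups overlapped, and *SLC1A5* lost its call without nutlin replicate 2. *SLC6A9*, a glycine transporter, stood at 12.1 and 4.63 against 21.7 and 20.2 CPM. Its groups did not overlap, and its call was lost in DESeq2 and without nutlin replicate 2 or either combination library. The raised transporters numbered 5 without nutlin replicate 2 and 3 with moderated fold changes. The moderated fold changes come from DESeq2 on the 4 compared libraries alone. The summed level of the list was 1423 and 1230 CPM under nutlin and 2153 and 2168 under the combination. It was 1685 and 1814 under DMSO and 2068 and 1918 under GSK2830371 alone. The combination libraries lay above all others, with those of GSK2830371 alone next.

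Enzymes that make serine, glycine, asparagine and proline and carry one-carbon units gave 6 raised and 0 lowered members of 17 (1.16% and 1.52% of all genes), with a median of 0.53. The mitochondrial folate enzyme *MTHFD2* stood at 104 and 128 CPM under DMSO, 79.2 and 53.3 with nutlin and 178 and 178 with the combination, and its change of 1.43 ± 0.14 came without overlap. *PSAT1* and *PSPH*, of serine synthesis, stood at 148 and 88.4 against 256 and 224 CPM and at 18.9 and 17.8 against 27.7 and 29.2. *ASNS*, asparagine synthetase, stood at 82.9 and 52.6 against 133 and 114 CPM. Groups did not overlap for these 3 genes. Leaving out nutlin replicate 2 or combination replicate 1 ended the calls of *PSAT1* and *ASNS* and left 2 or 3 raised members in the list. DESeq2 raised 3 members and lowered 0. At an unadjusted p below 0.05 in edgeR 12 members were higher and 2 lower, where 26.3% of all genes differed. The 2 were the cytosolic folate enzymes *MTHFD1* (−0.37) and *SHMT1* (−0.31), chosen after their values were seen. The summed level of the list was 1428 and 1195 CPM under nutlin and 1913 and 1789 under the combination. It was 1499 and 1751 under DMSO and 1954 and 1674 under GSK2830371 alone, which overlapped the combination. The effect of the drug with nutlin minus that without it was called positive for 1 of the 17 members (1.79% of all genes).

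Of the 20 cytosolic aminoacyl-tRNA synthetases, which charge tRNAs, 0 were called in edgeR or DESeq2. Their median was 0.20, and 12 had an unadjusted p below 0.05 in edgeR (26.3% of all genes). At an adjusted p below 0.05 in edgeR quasi-likelihood, Benjamini-Hochberg, 8 were higher (5.89% of all genes), all by less than 1.5-fold. In nutlin replicate 2 many genes of amino acid supply lay lower than in replicate 1, as the values above show, so the size of these changes rests in part on that library.

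Of 8 secreted stress factors tested, 3 were raised (1.16% of all genes), and they were among the largest increases. *ADM2*, a peptide of the calcitonin family, stood at 13.1 and 7.95 CPM under nutlin and 42.3 and 46.5 under the combination (2.08 ± 0.16). *GDF15*, a stress cytokine that is also a p53 target, stood at 1.04 and 1.65 against 5.24 and 5.83 (2.03 ± 0.22), and *STC2*, a stanniocalcin, at 22.0 and 12.5 against 42.3 and 42.6 (1.31 ± 0.22). The groups did not overlap for any of the 3. Of 28 NRF2 targets, 3 were raised (1.16% of all genes), *SLC7A11*, *HMOX1* and *AKR1C1*, against 2 in DESeq2 and 0 with its moderated fold changes. *AKR1C1* stood at 11.1 and 11 against 16.8 and 18.5 CPM without overlap, but shares near-identical sequence with *AKR1C2* and *AKR1C3*, which were not called, so its count is uncertain. The glutathione and transsulfuration list of 15 held *CHAC1* and *CTH* as its raised members. Together the 7 lists of stress regulators, amino acid transporters, amino acid enzymes, tRNA synthetases, glutathione genes, secreted factors and mTORC1 brakes held 29 of the 184 raised genes and 102 of the 15900 genes tested. *ICOSLG*, a costimulatory ligand outside the lists, stood at 3.15 and 2.83 against 7.03 and 7.25 CPM (1.26 ± 0.14), with no overlap.

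All 63 members of the mitosis and kinetochore list lay lower in both combination libraries than in both nutlin libraries, a share not counted over all genes tested. All 63 were lower at an unadjusted p below 0.05 in edgeR, where 26.3% of all genes differed in either direction. Of the 63, 57 were called lowered, where 1.52% of all genes were. The median was −1.03, and 33 members fell at least 2-fold. None had a positive value at an unadjusted p below 0.05 in edgeR, and DESeq2 lowered 55 and raised 0. Values ran from −2.08 for *PIF1*, a helicase, to −0.28 for *PTTG1*, which encodes securin, and these ends of the range were chosen after their values were seen. These 57 genes make up 23.6% of the 242 lowered genes. The summed level of the list was 6282 and 5519 CPM under DMSO, 3911 and 4795 under GSK2830371, 2438 and 3108 with nutlin and 1273 and 1535 with the combination. The 4 treatments did not overlap in this sum. In bulk RNA, fewer cells in mitosis and less of these transcripts per cell cannot be told apart.

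*KIF20A* (chromosome 5, 137514408 to 137523412), a kinesin of cytokinesis, stood at 90.1 and 76.7 CPM under DMSO, 39.5 and 54.7 with nutlin and 13.9 and 14.7 with the combination. The last groups did not overlap and differed by −1.72 ± 0.15 (adjusted p = 3.0e-05, edgeR quasi-likelihood, Benjamini-Hochberg). *HJURP* (chromosome 2, 234742062 to 234763212), the chaperone that loads the centromeric histone CENP-A, stood at 32.2 and 42.1 CPM under nutlin and 11 and 12 under the combination (−1.70 ± 0.13). *PLK1* (chromosome 16, 23688977 to 23701688), a kinase of mitotic entry and spindle assembly, stood at 79.0 and 118 against 27.7 and 34.0 (−1.68 ± 0.17). Neither overlapped between groups. Cyclin A2 (*CCNA2*, −1.55), the spindle protein genes *PSRC1* (−1.50) and *ASPM* (−1.42), *CENPA* (−1.47) and *CDCA3* (−1.43), a factor of mitotic entry, followed. *CDC20*, which activates the anaphase-promoting complex, fell by 1.34 on the log2 scale. Called members of the list numbered 38 without nutlin replicate 2, 47 without combination replicate 1, and 20 when the fold change was tested against 1.5-fold.

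The letters TTTGAA, a form of the cell cycle homology region through which the DREAM complex is known to repress mitotic genes, were searched on both strands of the same promoters. They occurred in 62 of 175 lowered promoters (35.4%), 14 of 132 raised (10.6%), 10.1% of all genes tested and 15.4% of all promoters. In the mitosis list 40 of 53 promoters held them (75.5%), and in a list of DNA replication genes 1 of 43 (2.33%). CCAAT boxes occurred in 52.6% of lowered, 36.4% of raised and 36.4% of all tested promoters. The promoters of *HJURP* (chr2:233854486-233854785, minus strand) and *PLK1* (chr16:23678639-23678938, plus strand) are printed as members that fell, with TTTGAA in capitals at −111 and −29.
HJURP: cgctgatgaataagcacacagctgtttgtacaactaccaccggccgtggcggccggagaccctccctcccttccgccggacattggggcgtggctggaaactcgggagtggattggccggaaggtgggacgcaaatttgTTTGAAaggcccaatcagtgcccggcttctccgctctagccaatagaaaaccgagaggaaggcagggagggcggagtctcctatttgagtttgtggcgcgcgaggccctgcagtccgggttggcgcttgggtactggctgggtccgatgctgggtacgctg
PLK1: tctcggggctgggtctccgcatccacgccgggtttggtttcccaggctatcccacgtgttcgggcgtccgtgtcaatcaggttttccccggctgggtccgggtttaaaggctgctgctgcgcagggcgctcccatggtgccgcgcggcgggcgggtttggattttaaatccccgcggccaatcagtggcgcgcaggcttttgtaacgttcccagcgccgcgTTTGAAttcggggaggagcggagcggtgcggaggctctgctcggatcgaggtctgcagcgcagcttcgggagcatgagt

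Genes of DNA replication and the G1/S transition gave smaller values in this comparison. Of 50 tested, 4 were lowered and 0 raised (1.52% and 1.16% of all genes), with a median of −0.20. In edgeR 4 members had positive and 23 negative values at an unadjusted p below 0.05, where 26.3% of all genes differed. By adjusted p alone 14 were lower and 1 higher (6.53% and 5.89% of all genes). DESeq2 lowered 4 and raised 0. Nutlin alone had lowered 46 of the 50 and 62 of the 63 mitosis genes, where 5.43% of all genes were lowered, with medians of −1.81 and −1.13. That comparison shares its nutlin libraries with the one described here, so the values are only set side by side. The lowered replication genes were *UHRF1*, a reader of replicated DNA methylation, at 40.6 and 42.8 CPM under nutlin and 26.6 and 25.8 under the combination, and *RRM2*, *CDT1* and *FAM111B*, which act in nucleotide supply, origin licensing and replication. All had groups that did not overlap, and the calls of the last 3 were lost without nutlin replicate 2 or combination replicate 1, that of *FAM111B* also without either of the other 2 libraries. The summed level of the list was 1460 and 1590 CPM under nutlin and 1412 and 1439 under the combination, against 3987 and 4137 under DMSO. Of 18 genes of homologous recombination and Fanconi repair, whose median was −0.28, 7 were lower by adjusted p alone (6.53% of all genes). Of these 1, the helicase *BRIP1*, was called lowered (1.52% of all genes), a call lost without nutlin replicate 1 or combination replicate 1, and 2 members were lowered without combination replicate 2. Of 14 damage kinases and PPM1D substrates 0 were called in edgeR or DESeq2, with 6 at an unadjusted p below 0.05 in edgeR (26.3% of all genes), 5 of them lower.

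**Figure D3:**
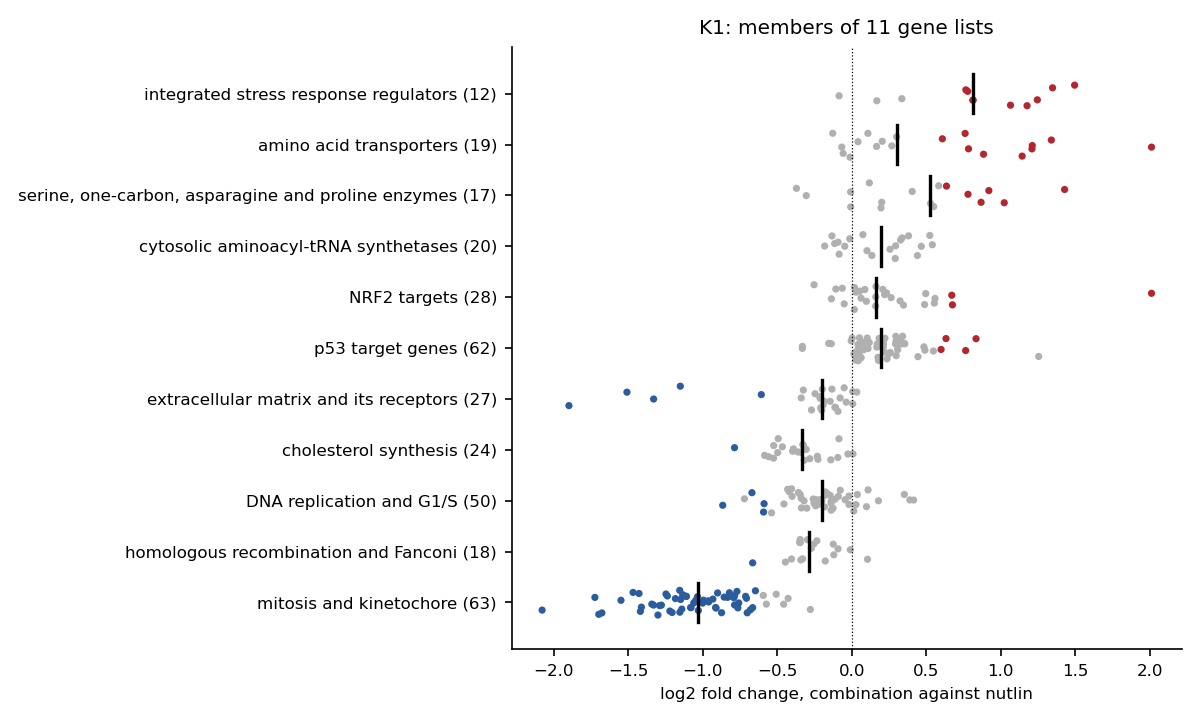
Log2 fold change of combination against nutlin in K1 for each tested member of 11 gene lists, with the number of members in parentheses. Points are genes, red where raised, blue where lowered and grey where not called; black bars are list medians and the dotted line is the median of all genes tested. The mitosis list lies to the left (median −1.03) and the stress regulators to the right (median 0.81).

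Among called genes whose higher group averaged 5 CPM or more, the largest decrease of all was that of *HAS2*, a hyaluronan synthase. It stood at 16 and 17.9 CPM under DMSO, 7.83 and 8.85 under GSK2830371, 16 and 14.3 with nutlin and 4.27 and 3.84 with the combination. Both groups given GSK2830371 lay below both groups without it, and the change from nutlin to the combination was −1.90 ± 0.12 (adjusted p = 1.8e-06, edgeR quasi-likelihood, Benjamini-Hochberg). The cadherin *CDH6* followed the same order at a higher level, with 1064 and 780 CPM under DMSO, 388 and 571 under GSK2830371, 749 and 986 with nutlin and 267 and 343 with the combination (−1.51 ± 0.18). Of 27 genes of the extracellular matrix and its receptors 5 were lowered and 0 raised (1.52% and 1.16% of all genes), with a median of −0.20. The lowered members numbered 3 without nutlin replicate 2 or combination replicate 1. DESeq2 also lowered 5 and raised 0, and none had a positive value at an unadjusted p below 0.05 in edgeR. The others were *RHOJ*, *COL1A1* and *HAS3*, a second hyaluronan synthase that fell by 0.61 on the log2 scale and was named after its values were seen. *COL1A1* was scarce, at 1.84 and 1.71 against 0.71 and 0.88 CPM, and its call was lost without nutlin replicate 1, nutlin replicate 2 or combination replicate 1.

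Of 24 cholesterol synthesis genes, 1 was lowered and 0 raised (1.52% and 1.16% of all genes), the median was −0.34, and 14 (6.53% of all genes) were lower at an adjusted p below 0.05 in edgeR quasi-likelihood, Benjamini-Hochberg. The lowered members numbered 6 without nutlin replicate 1 and 2 without combination replicate 2 or GSK2830371 replicate 1. DESeq2 lowered 2 and raised 0, and none was higher at an unadjusted p below 0.05 in edgeR. The called member *HMGCS1*, an early enzyme of the pathway, stood at 152 and 171 CPM under nutlin and at 94.0 and 93.3 under the combination, without overlap. Where 1.16% of all genes were raised and 1.52% lowered, smaller counts came from the lists of lysosome and autophagy genes (1 of 27 raised, *GABARAPL1*), interferon-stimulated genes (1 of 22 lowered, *IRF9*), inflammatory genes (1 of 22 raised, *IL1A*) and MAPK output (1 of 25 raised, *EGR1*). In the lysosome list 10 of 27 genes were higher by adjusted p alone (5.89% of all genes), with a median of 0.06. *IL1A* lost its call without nutlin replicate 2 or combination replicate 1, and *EGR1* when any of the 4 compared libraries was left out. *CDKN1A* was raised and *CDKN2C* lowered among 12 CDK inhibitors and D cyclins, and the call of *CDKN2C* was lost in DESeq2 and without nutlin replicate 2 or either combination library. Of 77 ribosomal protein genes and 44 histone genes 0 were called in edgeR or DESeq2. At an unadjusted p below 0.05 in edgeR 1 and 6 of them differed (26.3% of all genes). Of 442 zinc finger genes 1 was raised, *ZNF773*. Its call was lost when any of the 4 compared libraries was left out, and in DESeq2. The call was also lost with the replicate number as a block, with RLE size factors or with GC and length offsets. Histone and zinc finger genes share sequence with their relatives, and their counts are uncertain.

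The identity of the line was checked on thyroid markers. *PAX8* was abundant, with a mean of 844 CPM under nutlin and 782 under the combination, *FOXE1* stood at 33.4 and 31.4 and *TG*, thyroglobulin, at 5.60 and 6.06, and none of the 3 was called. *NKX2-1* was close to absent, at 0.35 and 0.25 CPM under nutlin and 0.03 in either combination library, and although it was called lowered, its call was lost without any of the 4 compared libraries and in DESeq2. Of 13 thyroid markers 9 passed the filter on low counts, and *TSHR*, *DIO1* and *DIO2* were among those that did not. *EPCAM*, at 0.243 and 0.311 CPM under nutlin, was scarce as well, while *KRT8* and *KRT18* were abundant. Markers of other cell types were few. Summed levels under nutlin and the combination were at most 81.1 CPM for the leukocyte list, 5.81 for the endothelial, 18.1 for the fibroblast and 33.2 for the neural list. *CD14* was lowered among 4 leukocyte markers tested and *COL1A1* among 6 fibroblast markers, where 1.52% of all genes were lowered. The neural genes *RBFOX3* and *MAP2* were raised among 5 tested, where 1.16% of all genes were raised. The calls of *CD14* and *MAP2* were each lost without 3 of the 4 compared libraries, and that of *RBFOX3* without nutlin replicate 1.

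Among the most abundant transcripts, *FN1* stood at 72410 and 74000 CPM under nutlin and at 67800 and 65730 under the combination, and *ACTB* at 7373 and 7404 against 6527 and 6013. Neither gene's groups overlapped, and the changes of −0.13 and −0.24 were not called. *FTH1*, *EEF1A1* and *GAPDH* overlapped between the groups, with values of 0.02, 0.03 and −0.02 whose sign changed under some alternatives. The last 4 of these genes have processed pseudogenes, so their counts are uncertain.

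GSK2830371 was compared between cells with and without nutlin. Without nutlin it raised 117 genes (0.736%) and lowered 238 (1.5%) relative to DMSO. These libraries are not shared with the comparison of combination and nutlin. Across 10573 genes of at least 5 CPM the fold changes of the drug in both settings had Pearson's r of 0.339 and Spearman's rho of 0.301, and across the 426 called genes 0.592 and 0.694, where genes are not independent replicates. The called genes were chosen for a large change with nutlin present, a choice that can by itself raise the correlation. Positive values without nutlin were found for 8442 of the 15900 genes tested. Of the 184 raised genes, 148 had a positive value without nutlin and 28 were raised there, and of the 242 lowered genes, 15 had a positive value and 50 were lowered. In the mitosis list GSK2830371 alone lowered 23 of 63 genes, and all 63 had negative values.

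**Figure D4:**
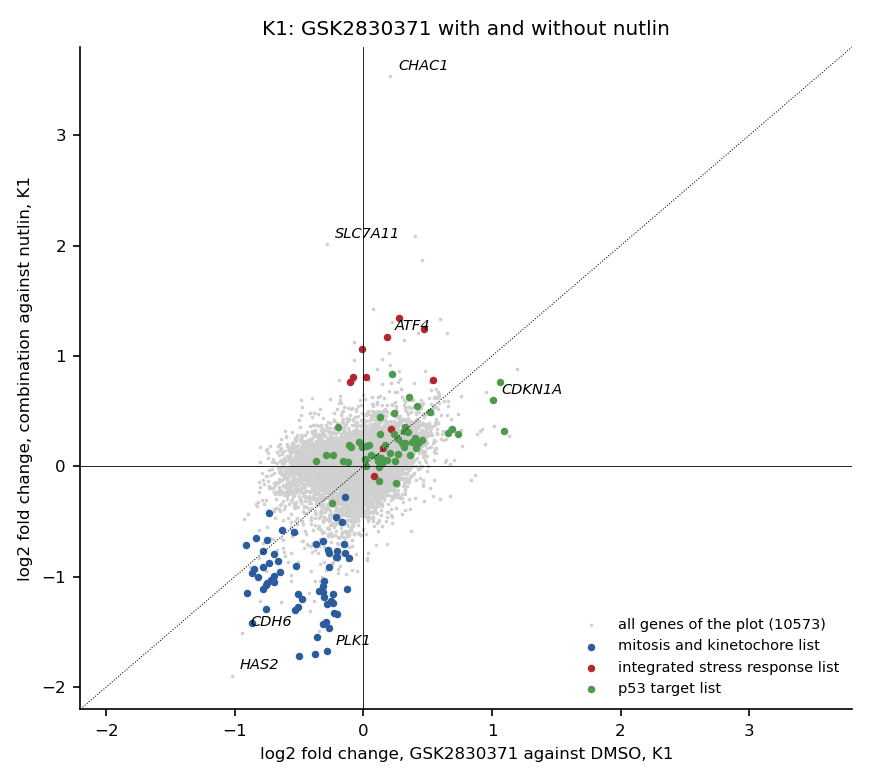
Log2 fold change of GSK2830371 in K1 without nutlin (horizontal axis) and with nutlin (vertical axis) for 10573 genes of at least 5 CPM; the dotted line marks equal change. *CHAC1*, *SLC7A11* and *ATF4* lie far above the line near 0 on the horizontal axis, mitosis genes (blue) lie below 0 on both axes, and *CDKN1A* rose in both settings.

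The interaction tests the difference directly, as the effect of GSK2830371 with nutlin minus that without it. It was positive for 284 genes (1.79%) and negative for 104 (0.654%). These counts depended on processing. The effect of GSK2830371 without nutlin followed the GC content of transcripts (Spearman's rho 0.579 across 11505 genes), the interaction ran the other way (−0.605), and the comparison of combination with nutlin hardly did (−0.12). With offsets for GC content and length the interaction was positive for 45 genes and negative for 53, while the main comparison gave 180 raised and 246 lowered. Positive values made up 73.2% of the calls, 84.0% with scaling by library totals and 45.9% with the offsets. Positive interactions numbered 13 without nutlin replicate 2, 35 without combination replicate 2, 131 without GSK2830371 replicate 1, 584 without GSK2830371 replicate 2 and 450 without nutlin replicate 1. Negative ones numbered 7 without nutlin replicate 2, 26 and 57 without combination replicate 2 and 1, and 63 without DMSO replicate 2.

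Several named genes kept a called interaction under each of 15 alternatives. It was 3.33 for *CHAC1*, 2.30 for *SLC7A11*, 1.69 for *ADM2*, 1.35 for *MTHFD2*, 1.00 for *ATF4*, 0.87 for *CEBPG* and 0.79 for *TRIB3*, so these rose more where nutlin was present. For *CHAC1* the drug alone gave 0.21, and for *SLC7A11* −0.29. *HJURP* (−1.32) and *CDC20* (−1.14) also kept theirs. Those of *KIF20A* (−1.23), *PLK1* (−1.40), *CCNA2* (−1.19) and *CTH* (1.42) were lost without nutlin replicate 2. In the mitosis list 28 of 63 members had a called negative interaction (0.654% of all genes), but without nutlin replicate 2 only 7 genes of all those tested did. *MDM2* (0.27), *PPM1D* (−0.09) and *CDH6* (−0.56) had no called interaction. *CDKN1A* had −0.41 (adjusted p = 0.012, edgeR quasi-likelihood, Benjamini-Hochberg), under the fold threshold, as the drug alone raised it from 110 and 118 to 232 and 229 CPM.

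The same comparison was made in TPC1, in a fit of both lines over 16738 genes. There the combination raised 1102 genes (6.58%) and lowered 979 (5.85%) relative to nutlin. Across the 10573 genes of at least 5 CPM in K1, fold changes in K1 and TPC1 had Pearson's r of 0.460 and Spearman's rho of 0.455, and across the 426 genes called in K1 0.576 and 0.621. Restricting to genes of at least 1 CPM in TPC1, a limit chosen after the plot was seen because genes almost absent from TPC1 gave erratic values, changed these to 0.520 and 0.469 over 10247 genes and to 0.731 and 0.720 over 310. The libraries of the lines are separate, but genes called in K1 were chosen for a large change there, which can by itself raise the correlation. Of the genes raised in K1, 81 were raised and 3 lowered in TPC1, and of those lowered in K1, 104 were lowered and 7 raised.

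**Figure D5:**
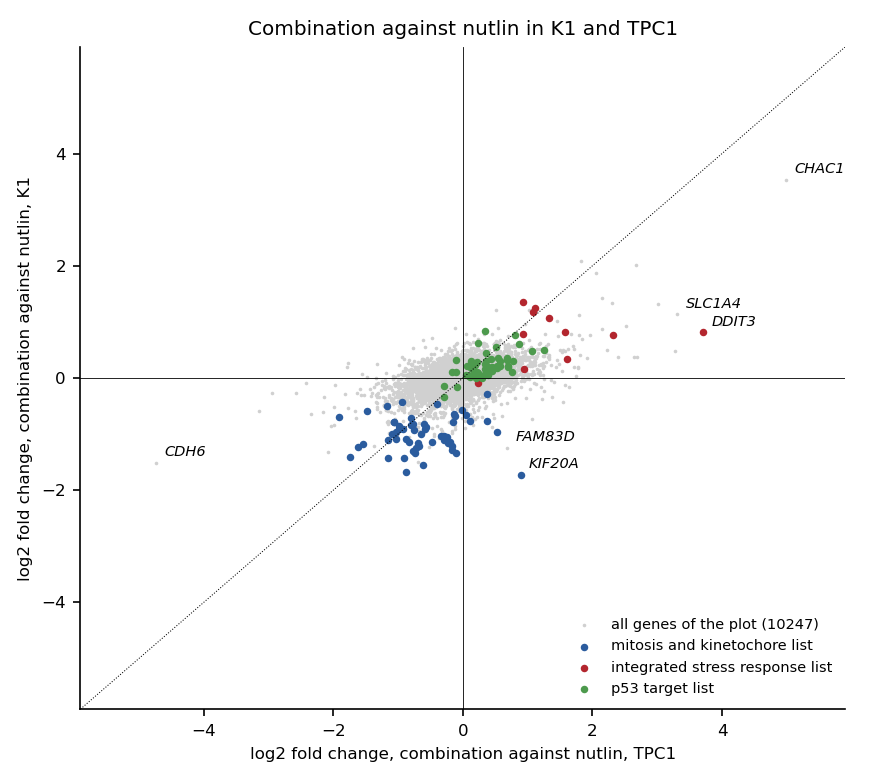
Log2 fold change of combination against nutlin in TPC1 (horizontal axis) and K1 (vertical axis) for 10247 genes of at least 5 CPM in K1 and 1 CPM in TPC1; the dotted line marks equal change. *DDIT3*, *SLC1A4* and *CHAC1* lie below the line, *CDH6* above it, and *KIF20A* and *FAM83D* fall in K1 and rise in TPC1.

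The test of the difference between the lines called 428 genes higher (2.56%) and 428 lower (2.56%) in K1 than in TPC1. Without K1 nutlin replicate 1 the first count was 267. *DDIT3* stood at 13.8 and 14.3 CPM under nutlin and at 213 and 157 under the combination in TPC1, and its change was smaller in K1 (difference −2.90 on the log2 scale, adjusted p = 1.2e-07, edgeR quasi-likelihood, Benjamini-Hochberg). *CHAC1* reached 304 and 348 CPM in TPC1 from 10.5 and 9.98, a difference between lines of −1.46. Both differences kept their calls under each of the 11 alternatives. *SLC1A4* (−2.17) and *CEBPG* (−1.55) likewise rose less in K1, whereas *ATF4* (0.09), *SLC3A2* (0.19) and *DDIT4* (0.42) had no called difference.

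Among mitosis genes, *KIF20A* went from 16.1 and 13.5 CPM under nutlin to 25.7 and 28.8 under the combination in TPC1, against its decrease in K1 (difference −2.61). Its level under DMSO in TPC1 was 172 and 186 CPM. *FAM83D*, a spindle protein gene outside the list, went from 45.1 and 45.9 to 67.6 and 78.9 CPM (difference −1.93). In TPC1 37 of the 63 mitosis genes were lowered and 1 raised (5.85% and 6.58% of all genes), and the line difference was called lower in K1 for 16 and higher for 2 (2.56% of all genes either way). *CDH6* fell from 12.8 and 14.2 to 0.48 and 0.53 CPM in TPC1, further than in K1 (difference 3.23). *MDM2* (0.39), *CDKN1A* (−0.26) and *PPM1D* (−0.05) had no called difference between the lines.

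Genes that respond to nutlin in TPC1, libraries that the K1 comparison does not use, were followed in K1. Of 2827 genes raised by nutlin there, the combination in K1 raised 73 and lowered 21 beyond nutlin, with a median of 0.09, and of 2581 lowered there it raised 22 and lowered 155, with a median of −0.10. As shares these are 2.58% raised and 0.743% lowered in the first list and 0.852% and 6.005% in the second, where all genes gave 1.16% and 1.52%. Without nutlin replicate 2 these counts were 40 and 11 for the first list and 13 and 90 for the second. Without combination replicate 2 the first list gave 42 raised and 13 lowered, and without combination replicate 1 it gave 13 lowered. The first list held *LURAP1L* (raised, from 29.5 and 26.6 to 47.6 and 47.4 CPM) and *TUBA1A* (lowered, from 177 and 188 to 116 and 107 CPM), a tubulin gene with near-identical relatives whose count is uncertain. The second held *TNS1*, a focal adhesion protein gene, at 182 and 191 against 115 and 115 CPM. None of these 3 overlapped between the groups.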

How the data were processed

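Stranded polyadenylated RNA from K1 and TPC1 cells was sequenced, with 2 libraries for each of 4 treatments in each line. The authors aligned reads to GRCh37 with TopHat2 2.0.13 and deposited 1 table of HTSeq 0.6.1 counts per gene (25369 genes). The table numbers the second library of each TPC1 group 3, and these 4 columns were used as that group's second library. The 8 K1 libraries held 28888686 to 37161241 counts.

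Genes above 0.1 CPM in at least 2 K1 libraries were kept. TMM scaling, dispersion estimates and quasi-likelihood tests were run in edgeR 4.0.16 (limma 3.58.1, R 4.3.3) in a joint fit with 4 residual degrees of freedom and a biological coefficient of variation of 0.0522. p-values were adjusted with Benjamini-Hochberg. A gene was called at an adjusted p below 0.05 and a fold change above 1.5. A second fit of all 16 libraries tested the difference between the lines. DESeq2 1.42.0 was run as an alternative. Its Wald test used all 8 K1 libraries (16 for the difference between the lines), and its moderated fold changes the 4 compared libraries alone. Offsets for GC content and transcript length were smoothed with mgcv 1.9.3 where annotation gave both (14170 genes). Tables and figures were made in Python 3.11.15 with pandas 2.3.3 and matplotlib 3.10.9. Scripts were first tested on simulated data. Gene coordinates are from GENCODE v44lift37 and promoters from RefSeq GRCh38.p14.

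Other alternatives were RLE size factors, library totals, filterByExpr, no filter, a replicate block, each library left out, the 4 compared libraries alone, a test against 1.5-fold and the adjusted p alone. The 78 named genes are those the study's paper names for these pathways, the 10 largest changes in each direction among genes whose higher group averaged 5 CPM or more and whose groups did not overlap, up to 4 called members of each list, up to 5 interactions or line differences per direction and the 5 genes with most counts. Members and the 38 gene lists were chosen with earlier results of these data known. The limit of 1 CPM in TPC1, used in the plot of both lines and in the second pair of correlations, was chosen after the plot without it was seen.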

Additional observations from a re-analysis of the deposited data

Results flagged for a closer look

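The test of the difference between the lines flagged 428 genes whose change from nutlin to the combination was higher in K1 than in TPC1 and 428 whose change was lower. The same test flagged named genes that were lower in K1, with the log2 change in K1 minus that in TPC1 at −3.02 for *RAB39B*, −2.90 for *DDIT3*, −2.61 for *KIF20A*, −2.17 for *SLC1A4*, −1.93 for *FAM83D*, −1.70 for *STC2*, −1.59 for *RBFOX3*, −1.55 for *CEBPG*, −1.46 for *CHAC1*, −1.33 for *ATF3*, −1.28 for *ASNS*, −1.20 for *LURAP1L*, −1.04 for *SLC1A5*, −0.88 for *PMAIP1*, −0.76 for *TRIB3* and −0.73 for *MTHFD2*. It flagged as higher in K1 *GABARAPL1* (0.59), *TUBA1A* (0.94), *BMPER* (1.57), *PADI3* (1.71), *GPRIN3* (2.55), *CDH6* (3.23) and *LGR5* (3.87). In TPC1 *LGR5* and *BMPER* stayed below 1 CPM under both treatments. *GPRIN3* and *CDH6* were below it under the combination, and *RAB39B* and *RBFOX3* under nutlin. Calls were lost with 6 single libraries left out for *ATF3* and *MTHFD2*, 4 for *GABARAPL1*, 2 for *ASNS*, *LGR5* and *BMPER* and 1 for *RBFOX3*, *LURAP1L* and *GPRIN3*.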

How the results depend on the processing

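With 2 libraries per group, each leave-out rests on a lone library assumed to vary like the other groups. Counts with moderated fold changes come from DESeq2 on the 4 compared libraries alone. Both the fold changes and the libraries then differ from DESeq2's Wald test on 8 libraries. Genes raised by the combination numbered 108 with DESeq2, 39 with its moderated fold changes, 14 when tested against 1.5-fold and 936 by adjusted p alone, and 87 to 195 with each library left out. Genes lowered numbered 81 with moderated fold changes, 30 when tested against 1.5-fold and 1039 by adjusted p alone, and 140 to 252 with each library left out. Positive interactions numbered 45 and negative ones 53 with GC and length offsets, and 13 to 584 and 7 to 139 with each library left out. Genes with a higher change in K1 than in TPC1 numbered 267 to 521 with each library left out, and those with a lower change 293 to 479. Uncalled values changed sign for *FTH1* (−0.0141 without combination replicate 2, 0.0386 without combination replicate 1), *EEF1A1* (−0.0340 without combination replicate 1, 0.0837 without combination replicate 2) and *GAPDH* (0.0183 with library totals, 0.00418 with GC and length offsets, 0.0164 without combination replicate 2 and −0.0765 without combination replicate 1). The cause was not tested. For the named genes, 1312 values of the main comparison kept direction and side of the threshold, 159 lost a call, 5 gained one and 5 changed sign. For interactions 380 kept theirs and 40 lost a call, and for line differences 228 and 25. With fewer than 5 CPM a gene's call rests on few counts.

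With the replicate number as a block, 168 genes were raised and 237 lowered, interactions numbered 264 and 102, and line differences 518 and 529 with the block within each line. Among calls of named genes, that of *ZNF773* did not pass with the block (adjusted p = 0.053, edgeR). The deviations of same-numbered K1 libraries had correlations over 12544 genes of −0.26 (DMSO and nutlin), −0.32 (DMSO and GSK2830371), −0.26 (DMSO and combination), 0.16 (nutlin and GSK2830371), 0.14 (nutlin and combination) and 0.34 (GSK2830371 and combination). The 3 pairs with DMSO were negative and the other 3 positive, and the numbers were not taken to pair the libraries. Whether the DMSO numbers run in another order was not tested, and if they do, the block fitted here does not match the libraries.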
